A study of Homo sapiens with 24 samples.

Results

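The genes of sterol synthesis and of fatty acid synthesis were followed by RNA sequencing in ARPE-19 cells, an established human line of retinal pigment epithelium. They were chosen by name, from 29 members of both pathways, and 28 of them were found among the 24053 gene identifiers of the expression table. ACACA, which encodes an acetyl-CoA carboxylase, is not analysed here. The 28 genes comprise 18 sterol enzymes, 6 fatty acid enzymes and 4 genes of regulation or transport, and all 28 passed the filter on low values.

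The cells received siRNA to both Nrf2 and Pink1 (the double siRNA), siRNA to Pink1, siRNA to Nrf2, or scramble siRNA as the control. Each of the 4 groups had 3 biological replicates, and each of these was measured in 2 technical replicates. The sample labels speak of knockout and KD, whereas the series design speaks of siRNA, and the groups are called siRNA here. The label protocols also describe a scratch wound, and do not state if RNA came from wounded cells. All samples come from 1 cell line, and the labels say nothing of separate cultures beyond calling the replicates biological, so p-values measure the spread between these samples.

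Cholesterol is built from acetyl-CoA through mevalonate, farnesyl diphosphate and squalene, and long-chain fatty acids are built from the same precursor. Many enzymes of both routes are transcribed under the SREBP factors: SREBP-2, from SREBF2, acts mainly on sterol genes and SREBP-1, from SREBF1, mainly on fatty acid genes. INSIG proteins hold the SREBP precursors in the endoplasmic reticulum when sterols are plentiful. The retinal pigment epithelium takes up and re-exports large amounts of cholesterol and fatty acids from shed photoreceptor membranes. NRF2, from NFE2L2, is a factor of the antioxidant response, and PINK1 is a kinase that marks damaged mitochondria for removal.

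Windows of 250 bases before the annotated start are shown for 4 genes on which the results below turn. With technical pairs averaged, HMGCS1, MSMO1 and ELOVL6 were below scramble in every siRNA sample, and FADS1 was above it in every one. The windows are RefSeq sequences of the GRCh38.p14 build, which is not the build named for the expression values. Each is read 5′ to 3′ on the strand of its gene. HMGCS1 lies at chr5:43313413-43313662 on the minus strand, MSMO1 at chr4:165327419-165327668 on the plus strand, ELOVL6 at chr4:110198616-110198865 on the minus strand and FADS1 at chr11:61817004-61817253 on the minus strand. Capitals mark the NF-Y box CCAAT and the Sp1 box GGGCGG on either strand (ATTGG and CCGCCC where the match is on the other strand). NF-Y and Sp1 are general promoter factors known to act together with SREBP.
HMGCS1: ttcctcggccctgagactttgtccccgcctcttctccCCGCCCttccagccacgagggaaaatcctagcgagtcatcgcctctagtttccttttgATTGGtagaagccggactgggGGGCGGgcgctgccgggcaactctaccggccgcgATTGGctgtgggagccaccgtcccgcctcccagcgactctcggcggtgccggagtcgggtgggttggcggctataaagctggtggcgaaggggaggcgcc
MSMO1: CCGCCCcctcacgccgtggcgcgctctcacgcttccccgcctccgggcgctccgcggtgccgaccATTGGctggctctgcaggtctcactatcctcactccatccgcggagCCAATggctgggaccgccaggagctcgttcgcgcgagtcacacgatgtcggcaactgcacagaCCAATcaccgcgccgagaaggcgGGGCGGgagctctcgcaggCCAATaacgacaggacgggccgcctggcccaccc
ELOVL6: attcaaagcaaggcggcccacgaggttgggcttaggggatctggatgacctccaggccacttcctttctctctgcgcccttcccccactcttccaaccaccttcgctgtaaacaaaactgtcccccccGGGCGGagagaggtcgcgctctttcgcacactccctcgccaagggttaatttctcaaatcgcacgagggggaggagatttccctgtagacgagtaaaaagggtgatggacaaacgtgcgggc
FADS1: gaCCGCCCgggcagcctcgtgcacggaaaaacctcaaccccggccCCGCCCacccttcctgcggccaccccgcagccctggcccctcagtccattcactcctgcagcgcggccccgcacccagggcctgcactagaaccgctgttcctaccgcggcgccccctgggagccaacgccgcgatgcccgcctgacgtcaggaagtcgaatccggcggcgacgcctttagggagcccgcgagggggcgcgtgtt

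The MSMO1 window holds 4 NF-Y boxes, the nearest beginning 34 bases before the start, and the HMGCS1 window holds 2, beginning 155 and 100 bases before it. HMGCS1 has 2 windows, and the one shown was picked because it holds the most matches to the motifs searched. The other HMGCS1 window has no NF-Y box. MSMO1, ELOVL6 and FADS1 have 1 window each. The ELOVL6 and FADS1 windows hold none, but each has an Sp1 box. With technical pairs averaged, PMVK and IDI1 were also below scramble in every siRNA sample, and their windows are not shown. The 1 window of PMVK has no NF-Y box, and 2 of the 3 windows of IDI1 have at least 1. Of the 28 genes, 24 have at least 1 window in the RefSeq promoter table, 31 windows in all. ACAT2, FASN, FDFT1 and SQLE have none. An NF-Y box lies in 21 of the 31 windows, against 32.0% of all 35116 windows in the table, and an Sp1 box in 28 of them, against 42.6%. By role, the NF-Y box is found for 13 of 15 sterol enzymes, for 2 of 5 fatty acid enzymes (ACLY and SCD) and for 3 of 4 regulation or transport genes. The strict sterol regulatory element TCACNCCAC was matched in 1 window, that of SREBF2, against 0.883% of all windows. The antioxidant response element core TGACNNNGC, the sequence bound by NRF2, was matched in 1 window, a second HMGCS1 window that is not shown, against 10.9% of all windows. No motif match overlaps another in the windows shown. A match describes letters only.

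The siRNA targets were checked first. NFE2L2 averaged 28.9 ± 6.16 TPM in the double siRNA, 68.7 ± 4.02 TPM in Pink1 siRNA, 20.02 ± 7.72 TPM in Nrf2 siRNA and 80.7 ± 7.69 TPM in scramble (SD, n = 3 each). PINK1 averaged 18.7 ± 2.93, 14.6 ± 3.22, 57.2 ± 8.35 and 55.8 ± 1.93 TPM in the same groups. TPM is transcript abundance scaled to 1 total per sample, so the number of reads behind a value is unknown. A single identifier, ENSG00000226958, took 15.5% to 41.4% of the TPM of the double siRNA samples, 24.9% to 35.5% in Pink1 siRNA, 29.9% to 38.6% in Nrf2 siRNA and 32.4% to 36.4% in scramble, and the levels of all other genes are read against what it left. Of 13 markers of the retinal pigment epithelium, 12 were in the table and 10 averaged at least 1 TPM, led by keratins KRT8 and KRT18. The visual cycle enzyme RPE65 did not pass 0.36 TPM in any sample. Summed levels of the RPE markers were 1719 to 2019 TPM in the double siRNA, 1556 to 2200 TPM in Pink1 siRNA, 1352 to 1648 TPM in Nrf2 siRNA and 1734 to 1972 TPM in scramble. The 2 blood markers found sum to 34.1 to 52.5, 25.3 to 30.9, 42.3 to 104.8 and 19.3 to 37.9 TPM in the same groups, nearly all of it CD68. None of the 5 adipocyte markers was in the table. The 4 fibroblast markers found, mostly COL1A1, sum to 6.17 to 7.72 TPM in the double siRNA, 2.93 to 5.67 TPM in Pink1 siRNA, 2.94 to 9.26 TPM in Nrf2 siRNA and 1.22 to 3.51 TPM in scramble, with the double siRNA apart from scramble. The part of these markers in the results below was not tested. In such bulk RNA, fewer cells of a type and less RNA per cell cannot be told apart.

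Both pathways were well expressed in scramble cells. TPM is corrected for gene length, so levels can be compared between genes. The highest scramble means were those of FDPS, which makes farnesyl diphosphate, at 179 ± 10.95 TPM, and of FDFT1, the squalene synthase, at 143 ± 9.52 TPM. The desaturases of polyunsaturated fatty acids, FADS2 at 113 ± 2.58 TPM and FADS1 at 109 ± 1.88 TPM, and the fatty acid synthase FASN, at 101 ± 6.06 TPM, came next (SD, n = 3 each). The sample ranges of FDPS, FDFT1 and FADS2 did not overlap, whereas FADS1 overlapped FADS2 and touched FASN. The lowest was SREBF1 at 11.01 ± 1.84 TPM, next to the mevalonate kinase MVK at 11.7 ± 1.72 TPM. The replicates of scramble lay close together: the median SD of the members on the log2(TPM + 1) scale was 0.239 in the double siRNA, 0.178 in Pink1 siRNA, 0.217 in Nrf2 siRNA and 0.0986 in scramble. Over all genes tested these medians were 0.311, 0.200, 0.211 and 0.172. Between technical replicates the median SD of the members was 0.104.

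**Figure D1:**
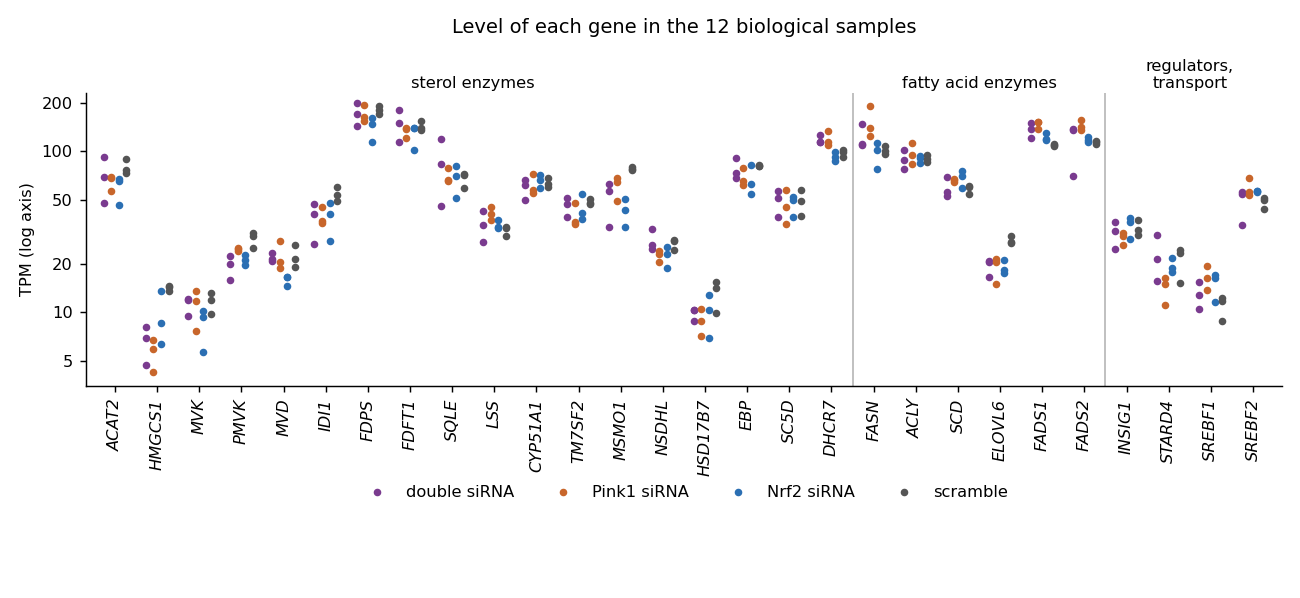
TPM of the 28 genes on a logarithmic axis, by role; each point is 1 of the 12 biological samples, coloured by group. FDPS has the highest scramble mean (179 TPM), and HMGCS1 averages 6.62 TPM in the double siRNA and 5.63 TPM in Pink1 siRNA, against 14.2 TPM in scramble.

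The 4 groups were compared to ask what each siRNA, and both together, did to the messages of these pathways. Differences are fitted log2 differences of TPM + 1, tested with limma over 13810 genes, and a gene is called at a Benjamini-Hochberg adjusted p under 0.05 over all of them. No member was called in any of the 9 comparisons. At an unadjusted p under 0.05 (limma), 4 members stood higher and 4 lower in Pink1 siRNA than in scramble, 0 higher and 6 lower in Nrf2 siRNA, and 1 higher and 5 lower in the double siRNA. Over all genes tested, adjusted calls made up 0.471% for Pink1 siRNA, 0.333% for Nrf2 siRNA and 0.753% for the double siRNA. At the unadjusted level, 7.65% of all genes were higher and 4.57% lower in Pink1 siRNA, 7.99% higher and 4.23% lower in Nrf2 siRNA, and 7.76% higher and 6.48% lower in the double siRNA. The members' shares were above this background for lower values in each siRNA group, and for higher values in Pink1 siRNA alone.

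Among the sterol enzymes, the mevalonate arm had a median log2 difference from scramble below 0 in all 3 siRNA groups. It runs from ACAT2, which condenses acetyl-CoA, over HMGCS1, MVK, PMVK, MVD and IDI1 to FDPS. All 7 of these genes had fitted differences below 0 in each comparison with scramble, as they did under each rescaling tried. Several were near 0 in the double siRNA and Pink1 siRNA. MVD had −0.009 and −0.002, MVK −0.06 and −0.10, and FDPS −0.09 and −0.09, in that order. Technical replicate 1 alone left 5 of 7 below 0 in the double siRNA (median −0.13) and in Pink1 siRNA (median −0.09). The Pink1 siRNA median was −0.37 in technical replicate 2 alone. Without replicate 2 of Pink1 siRNA, 5 of 7 were below 0 in Pink1 siRNA. This split of the pathway was chosen after its values were seen. The median log2 difference of the 7 was −0.23 in the double siRNA, −0.21 in Pink1 siRNA and −0.45 in Nrf2 siRNA, against 0.01, 0.02 and 0.02 over all genes tested. The share of all genes with a difference below 0 was 48.5%, 46.7% and 47.5%. The 3 comparisons share the scramble samples, so a low value in each is not independent.

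HMGCS1 encodes the synthase that makes HMG-CoA, the first product particular to this pathway. Its level was 4.75, 6.97 and 8.15 TPM in the double siRNA samples, 6.72, 5.91 and 4.27 TPM in Pink1 siRNA, 13.6, 6.38 and 8.58 TPM in Nrf2 siRNA, and 14.4, 14.6 and 13.7 TPM in scramble (replicates 1 to 3). All 9 siRNA samples lay below the 3 scramble samples, replicate 1 of Nrf2 siRNA only just. In technical replicate 1 alone, that Nrf2 siRNA sample had 14.96 TPM, above replicates 1 and 3 of scramble (13.92 and 13.95 TPM). The level was lower than in scramble by 2.03-fold in the double siRNA (log2 difference −1.02, 95% interval −1.56 to −0.49, adjusted p = 0.0824 by limma). In Pink1 siRNA it was lower by 2.32-fold (log2 difference −1.22, 95% interval −1.75 to −0.68, adjusted p = 0.0502). In Nrf2 siRNA the log2 difference was −0.59 (adjusted p = 0.349). The value in Pink1 siRNA lay at the threshold: it was called in 6 of 19 alternative settings, such as with ENSG00000226958 removed, with adjusted p from 0.0205 to 0.259 (limma), and in 0 of the 6 that left out 1 sample. The double siRNA value was called in 3 of 18, with adjusted p from 0.0284 to 0.255.

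PMVK, the kinase that makes mevalonate diphosphate, had 20.1, 22.3 and 15.9 TPM in the double siRNA, 24.0, 25.1 and 24.7 TPM in Pink1 siRNA, 22.8, 19.6 and 21.2 TPM in Nrf2 siRNA, and 25.2, 29.6 and 31.1 TPM in scramble. All 9 siRNA samples were below scramble, but Pink1 siRNA nearly touched scramble, and its log2 difference had the opposite sign, 0.004, in the technical replicates labelled 1 alone. Replicate 2 of scramble had 22.19 and 37.04 TPM in its technical replicates. The technical SD of PMVK on the log2 scale was 0.179, above the 0.152 between samples within a group. The log2 difference was −0.55 in the double siRNA (adjusted p = 0.121 by limma), −0.21 in Pink1 siRNA and −0.42 in Nrf2 siRNA (adjusted p = 0.266). IDI1, the isomerase that supplies the building block for FDPS, had 26.5, 47.0 and 40.8 TPM in the double siRNA, 37.0, 45.0 and 36.1 TPM in Pink1 siRNA, 47.4, 27.7 and 40.7 TPM in Nrf2 siRNA, and 59.6, 53.6 and 48.9 TPM in scramble. Again no siRNA sample reached the scramble range once technical pairs were averaged. The samples within the double siRNA and within Nrf2 siRNA spread widely. In technical replicate 1 alone, replicate 2 of the double siRNA (50.85 TPM) and replicate 1 of Nrf2 siRNA (48.23 TPM) passed replicate 3 of scramble (47.73 TPM). The log2 differences of IDI1 were −0.53, −0.45 and −0.50, with adjusted p of 0.313, 0.453 and 0.392 (limma). PMVK and IDI1 are named because they were apart from scramble in all 3 groups, a choice made after their values were seen.

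FDPS, the most abundant member, had 143, 170 and 198 TPM in the double siRNA, 153, 163 and 192 TPM in Pink1 siRNA, 161, 113 and 148 TPM in Nrf2 siRNA, and 179, 169 and 191 TPM in scramble. Only the Nrf2 siRNA samples stayed below the scramble range, with a log2 difference of −0.36 (adjusted p = 0.420 by limma). MVD, the decarboxylase of the arm, averaged 22.0 ± 1.36 TPM in the double siRNA, 22.4 ± 4.77 TPM in Pink1 siRNA, 15.9 ± 1.16 TPM in Nrf2 siRNA and 22.3 ± 3.56 TPM in scramble (SD, n = 3 each). Its technical SD on the log2 scale was 0.200, above the 0.190 between samples within a group. ACAT2 averaged 69.5 ± 22.0, 64.4 ± 6.84, 59.4 ± 11.4 and 79.4 ± 8.33 TPM in the same groups, and MVK 11.2 ± 1.5, 11.01 ± 3.06, 8.43 ± 2.43 and 11.7 ± 1.72 TPM. In Nrf2 siRNA the 7 log2 differences of the arm ran from −0.59 to −0.36, and 6 of the 7 genes had all samples below scramble, as had 9.26% of all genes. The scatter among samples was shared by several genes: replicate 2 of Nrf2 siRNA and replicate 1 of the double siRNA were the lowest of their groups for HMGCS1, MSMO1, IDI1, FDPS and FDFT1. The mean deviation of the 7 genes from scramble was −0.77 in that Nrf2 siRNA sample and −0.22 and −0.39 in the other two. In that double siRNA sample it was −0.56, and −0.25 and −0.25 in the other two. Without that Nrf2 siRNA sample the median log2 difference of the arm in Nrf2 siRNA was −0.29, and without that double siRNA sample it was −0.11 in the double siRNA, with 4 of 7 genes below 0. The arm's median in the double siRNA was −0.42 without replicate 3 of the double siRNA and −0.15 without replicate 1 of scramble. Replicate 2 of Nrf2 siRNA and replicate 1 of the double siRNA also had the highest shares of ENSG00000226958 in their groups, 38.6% and 41.4%. The part of that share in the result was not tested beyond removing it.

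The 11 enzymes from squalene synthase to cholesterol lay closer to scramble. Their median log2 difference was 0.01 in the double siRNA, −0.11 in Pink1 siRNA and −0.13 in Nrf2 siRNA. FDFT1 had 113, 149 and 180.2 TPM in the double siRNA, 121, 139 and 137 TPM in Pink1 siRNA, 139.5, 102 and 139.9 TPM in Nrf2 siRNA, and 153, 135 and 139.8 TPM in scramble, with all siRNA groups overlapping scramble (adjusted p of 0.972, 0.858 and 0.760 by limma). The squalene epoxidase SQLE ranged from 45.4 to 119 TPM within the double siRNA alone, against 59.1 to 72.2 TPM in scramble. CYP51A1, the demethylase that acts on lanosterol, averaged 59.1 ± 8.40 TPM in the double siRNA, 61.6 ± 9.25 TPM in Pink1 siRNA, 65.4 ± 5.96 TPM in Nrf2 siRNA and 63.7 ± 4.20 TPM in scramble (SD, n = 3 each). The late desaturase SC5D averaged 49.0 ± 9.13, 45.8 ± 11.3, 46.8 ± 6.93 and 48.6 ± 9.15 TPM in the same groups, and both genes overlapped scramble throughout. The isomerase EBP and the dehydrogenase NSDHL lay below scramble without overlap in Pink1 siRNA alone, at 68.5 ± 8.77 against 80.9 ± 0.829 TPM and at 22.5 ± 1.76 against 26.8 ± 2.11 TPM (adjusted p of 0.600 and 0.553 by limma). The reductases TM7SF2 and HSD17B7 had log2 differences below 0 in all 3 siRNA groups, from −0.28 to −0.08 and from −0.52 to −0.36, with their samples overlapping scramble.

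MSMO1, an oxidase that acts on methyl groups of the sterol ring so that they can be removed, stood apart in this arm. Its level was 34.0, 62.2 and 56.4 TPM in the double siRNA, 64.1, 67.9 and 49.0 TPM in Pink1 siRNA, 50.2, 33.9 and 43.4 TPM in Nrf2 siRNA, and 77.8, 79.3 and 76.1 TPM in scramble. Every siRNA sample lay below every scramble sample, and the scramble samples lay close together. The level was lower by 1.83-fold in Nrf2 siRNA than in scramble (log2 difference −0.87, 95% interval −1.35 to −0.40, adjusted p = 0.111 by limma). The log2 difference was −0.65 in the double siRNA (adjusted p = 0.204) and −0.37 in Pink1 siRNA (adjusted p = 0.523). The Nrf2 siRNA value was called in 4 of 19 alternative settings, again with ENSG00000226958 removed among them, with adjusted p from 0.0348 to 0.383 (limma). The highest came from leaving out replicate 2 of Nrf2 siRNA. Pseudogene copies of some sterol genes were measured too, at means of up to 1.11 TPM (HSD17B7P2), and reads shared between CYP51A1, FDPS or HSD17B7 and such copies leave those levels uncertain.

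DHCR7, the last reductase before cholesterol, ran the other way with Pink1 siRNA. It averaged 118 ± 6.86 TPM in the double siRNA, 119 ± 13.1 TPM in Pink1 siRNA, 92.5 ± 6.34 TPM in Nrf2 siRNA and 97.5 ± 5.14 TPM in scramble (SD, n = 3 each). All 6 samples with Pink1 siRNA, alone or in the double siRNA, were above all 6 without it. Its log2 difference over those 6 against 6 samples was 0.32 (adjusted p = 0.140 by limma), and 0.695% of all genes lay higher without overlap in this way. LSS, which closes squalene epoxide to lanosterol, averaged 41.2 ± 4.02 TPM in Pink1 siRNA and 32.4 ± 2.33 TPM in scramble, a log2 difference of 0.33 (adjusted p = 0.435).

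The fatty acid enzymes did not share a direction. ELOVL6, which elongates palmitate, had 16.6, 20.5 and 20.7 TPM in the double siRNA, 20.4, 21.4 and 14.9 TPM in Pink1 siRNA, 18.2, 17.7 and 21.1 TPM in Nrf2 siRNA, and 29.9, 26.9 and 27.3 TPM in scramble. Every siRNA sample lay below every scramble sample, and the 3 siRNA groups overlapped each other. The log2 differences were −0.52, −0.56 and −0.54, with adjusted p of 0.157, 0.171 and 0.184 (limma).

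FADS1 had 121, 137 and 150.0 TPM in the double siRNA, 138, 150.5 and 151 TPM in Pink1 siRNA, 118, 117 and 130.3 TPM in Nrf2 siRNA, and 109, 107 and 111 TPM in scramble. It was above scramble in all 9 siRNA samples, by a log2 difference of 0.31 in the double siRNA (adjusted p = 0.289 by limma), 0.42 in Pink1 siRNA (adjusted p = 0.196) and 0.15 in Nrf2 siRNA (adjusted p = 0.684). Its neighbour in polyunsaturated fatty acid synthesis, FADS2, had 135, 138 and 69.7 TPM in the double siRNA, 134, 142 and 156 TPM in Pink1 siRNA, 123, 113 and 117 TPM in Nrf2 siRNA, and 114, 110.3 and 115 TPM in scramble. Only the Pink1 siRNA samples were all above scramble (log2 difference 0.34, adjusted p = 0.544), and replicate 3 of the double siRNA lay below every other sample.

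FASN, which makes palmitate, had 148, 109.8 and 111 TPM in the double siRNA, 139, 124 and 191 TPM in Pink1 siRNA, 112, 102 and 77.5 TPM in Nrf2 siRNA, and 100.5, 107 and 95.4 TPM in scramble. The samples with Pink1 siRNA, alone or in the double siRNA, were above scramble, and those with Nrf2 siRNA alone lay around it. Its log2 difference was 0.27 in the double siRNA, 0.55 in Pink1 siRNA and −0.07 in Nrf2 siRNA, with adjusted p of 0.577, 0.255 and 0.923 (limma). ACLY, which supplies cytosolic acetyl-CoA to both routes, averaged 89.0 ± 12.3, 96.9 ± 14.9, 89.5 ± 4.24 and 90.1 ± 4.58 TPM in the double siRNA, Pink1 siRNA, Nrf2 siRNA and scramble. SCD, the desaturase that makes oleate, averaged 59.0 ± 8.5, 65.8 ± 1.26, 68.4 ± 8.34 and 58.3 ± 3.48 TPM in the same order (SD, n = 3 each).

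**Figure D2:**
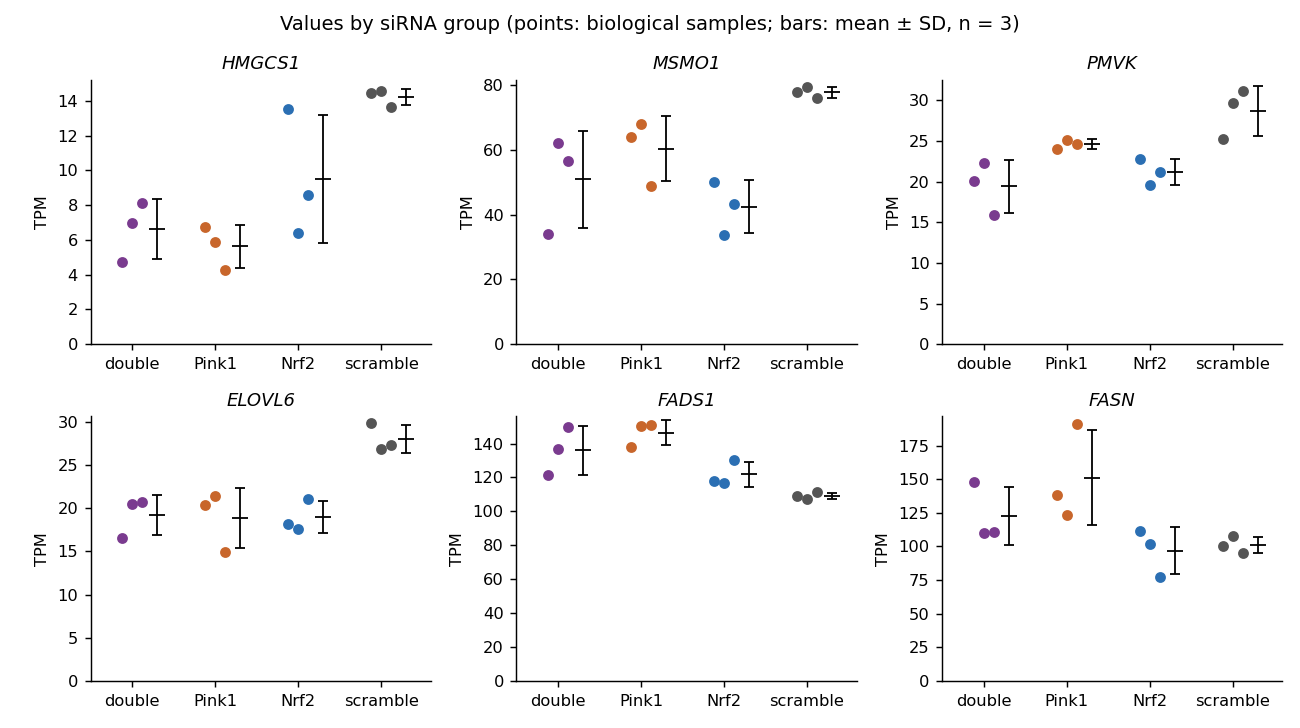
TPM of HMGCS1, MSMO1, PMVK, ELOVL6, FADS1 and FASN in each of the 12 biological samples (points), with the mean ± SD of each group (bars, n = 3). With technical pairs averaged, HMGCS1, MSMO1, PMVK and ELOVL6 have all 9 siRNA samples below the 3 scramble samples. FADS1 has all 9 above the scramble samples (107 to 111 TPM in scramble).

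Counted over all 28 members, 3 were higher and 5 lower without overlap in the double siRNA than in scramble, where 10.2% and 7.82% of all genes were. In Pink1 siRNA the counts were 8 higher and 8 lower, against 13.8% and 11.2% of all genes. The 8 higher were LSS, DHCR7, FASN, SCD, FADS1, FADS2, SREBF1 and SREBF2, and the 8 lower were ACAT2, HMGCS1, PMVK, IDI1, MSMO1, NSDHL, EBP and ELOVL6. In Nrf2 siRNA they were 2 higher and 8 lower, against 13.6% and 9.26%. The narrow scramble spread of the members given above stands beside these counts, and its part in them was not tested. Lower in all 3 siRNA groups were HMGCS1, PMVK, IDI1, MSMO1 and ELOVL6, 5 of 28 against 1.88% of all genes. These counts and shares are for averaged technical pairs. In technical replicate 1 alone, HMGCS1, PMVK and IDI1 each overlapped scramble in at least 1 siRNA group. Higher in all 3 was FADS1, 1 of 28 against 3.4% of all genes. The 3 comparisons share the scramble samples.

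The regulators showed no called difference either. SREBF2 had 55.8, 53.8 and 34.7 TPM in the double siRNA, 53.3, 55.9 and 67.6 TPM in Pink1 siRNA, 56.5, 56.9 and 55.6 TPM in Nrf2 siRNA, and 43.8, 50.9 and 49.4 TPM in scramble. Both single siRNA groups were above scramble in every sample, by log2 differences of 0.28 and 0.23 (adjusted p of 0.540 and 0.664 by limma). The double siRNA overlapped scramble. SREBF1 had 15.4, 12.8 and 10.5 TPM in the double siRNA, 16.3, 13.7 and 19.4 TPM in Pink1 siRNA, 16.4, 17.1 and 11.6 TPM in Nrf2 siRNA, and 8.90, 11.8 and 12.3 TPM in scramble. The Pink1 siRNA samples were all above scramble (log2 difference 0.54, adjusted p = 0.287), and the other groups overlapped it. The technical SD of SREBF1 on the log2 scale was 0.271, above the 0.254 between samples within a group. SREBF1 and SREBF2 totals do not show how much SREBP protein was cleaved and active.

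INSIG1, itself a well known SREBP target, had 24.6, 31.9 and 36.2 TPM in the double siRNA, 29.6, 26.3 and 31.0 TPM in Pink1 siRNA, 38.5, 28.7 and 36.1 TPM in Nrf2 siRNA, and 30.3, 37.5 and 32.3 TPM in scramble. All 3 siRNA groups overlapped scramble, with log2 differences of −0.12, −0.20 and 0.04 (adjusted p of 0.811, 0.681 and 0.959 by limma). STARD4, a cytosolic sterol carrier, had 15.6, 30.05 and 21.4 TPM in the double siRNA, 15.1, 16.3 and 11.2 TPM in Pink1 siRNA, 21.7, 19.0 and 17.8 TPM in Nrf2 siRNA, and 24.4, 23.4 and 15.2 TPM in scramble. Its groups overlapped scramble as well, and its log2 difference in Pink1 siRNA was −0.52 (adjusted p = 0.404).

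**Figure D3:**
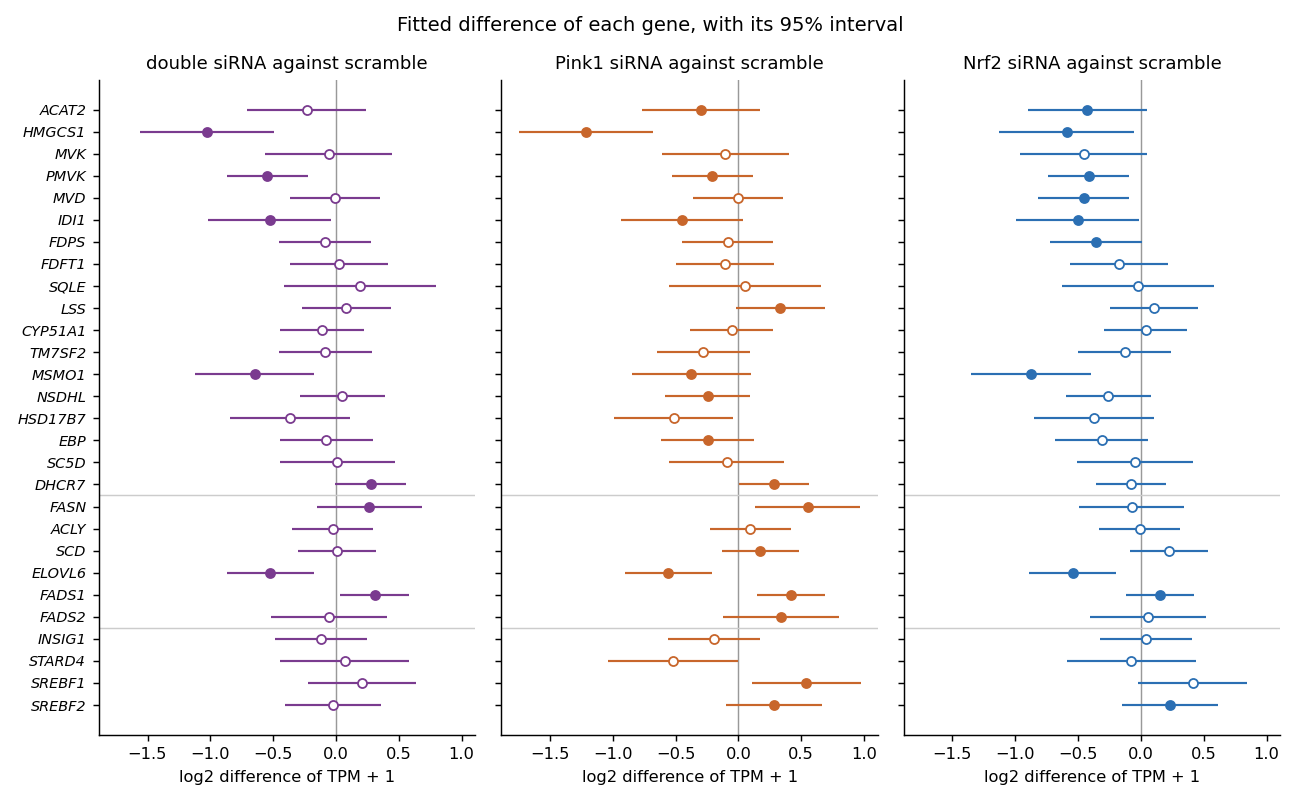
Fitted log2 differences of TPM + 1 from scramble for the 28 genes in the double siRNA, Pink1 siRNA and Nrf2 siRNA, by role, with 95% intervals; filled points mark genes whose siRNA samples do not overlap the scramble samples. The lowest value is that of HMGCS1 in Pink1 siRNA (−1.22) and the highest that of FASN in Pink1 siRNA (0.55).

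Set against each other, the sterol enzymes had a lower median than the fatty acid enzymes in both single siRNA groups. The median log2 difference of the 18 sterol enzymes was −0.08 in the double siRNA, −0.16 in Pink1 siRNA and −0.34 in Nrf2 siRNA, with 12, 15 and 16 of the 18 below 0. Without replicate 1 of the double siRNA, the median in the double siRNA was 0.00 with 8 of 18 below 0, and without its replicate 3 it was −0.18 with 15 of 18 below 0. Without replicate 2 of Nrf2 siRNA that in Nrf2 siRNA was −0.17. In technical replicate 1 alone, the median in Pink1 siRNA was −0.07. The median of the 6 fatty acid enzymes was −0.01 in the double siRNA, 0.26 in Pink1 siRNA and 0.02 in Nrf2 siRNA, and the values near 0 changed sign between settings. The sterol median minus the fatty acid median was −0.07 in the double siRNA, −0.41 in Pink1 siRNA and −0.36 in Nrf2 siRNA. It was −0.34 in the double siRNA without its replicate 3 and 0.018 without its replicate 2, and −0.23 in Nrf2 siRNA without its replicate 2. Sample by sample, the mean deviation of the sterol enzymes minus that of the fatty acid enzymes was −0.39, −0.23 and 0.10 in the double siRNA, −0.35, −0.32 and −0.44 in Pink1 siRNA, −0.13, −0.46 and −0.20 in Nrf2 siRNA, and 0.02, −0.02 and 0.00 in scramble. The single siRNA samples all lay below scramble in this measure, and replicate 3 of the double siRNA lay above it. That sample had the lowest share of ENSG00000226958, 15.5%.

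With ENSG00000226958 taken out and the rest rescaled, the mean deviation of the sterol enzymes was −0.23, −0.22 and −0.39 in the double siRNA, −0.23, −0.21 and −0.39 in Pink1 siRNA, −0.20, −0.48 and −0.28 in Nrf2 siRNA, and 0.03, 0.04 and −0.07 in scramble. The same step moves every gene of a sample alike: the fatty acid enzymes were at 0.16, 0.01 and −0.50 in the double siRNA, 0.13, 0.12 and 0.05 in Pink1 siRNA, −0.07, −0.01 and −0.08 in Nrf2 siRNA, and 0.01, 0.06 and −0.07 in scramble. In replicate 3 of the double siRNA both groups of enzymes were therefore shifted down together. As deposited, the sterol values were −0.38, −0.11 and −0.03 in the double siRNA, −0.25, −0.16 and −0.19 in Pink1 siRNA, −0.10, −0.56 and −0.23 in Nrf2 siRNA, and 0.03, 0.00 and −0.02 in scramble. The 9 siRNA samples were below the 3 scramble samples on both scales, replicate 3 of the double siRNA as deposited only just. With the removal, all genes had a median log2 difference of −0.08 in the double siRNA, −0.04 in Pink1 siRNA and 0.002 in Nrf2 siRNA. As deposited, that median was 0.01, 0.02 and 0.02. Both scales come from the same values. The sterol values of the double siRNA samples lay closer together after the rescaling, whereas those of Pink1 siRNA and the fatty acid values of the double siRNA lay further apart.

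**Figure D4:**
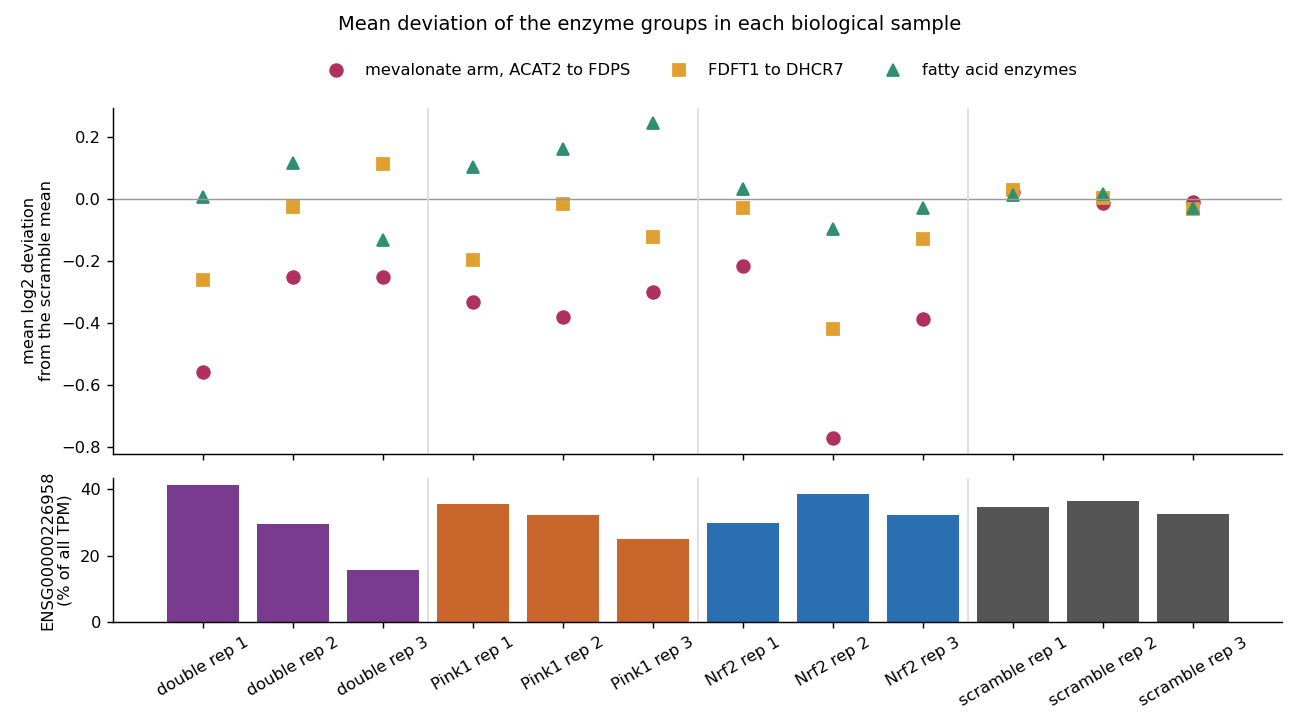
Mean log2 deviation from the scramble mean in each of the 12 samples for the mevalonate arm, the enzymes from FDFT1 to DHCR7 and the fatty acid enzymes, above the share of all TPM taken by ENSG00000226958 in that sample. The mevalonate arm is lowest in replicate 2 of Nrf2 siRNA (−0.77) and replicate 1 of the double siRNA (−0.56).

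The siRNA groups were also compared with each other. The double siRNA had 1 member higher and 1 lower than Pink1 siRNA at an unadjusted p under 0.05 (limma), where adjusted calls made up 0.0434% of all genes and unadjusted ones 2.44% higher and 3.36% lower: STARD4 was higher (log2 difference 0.59, adjusted p = 0.751) and PMVK lower (−0.34, adjusted p = 0.825). Against Nrf2 siRNA the double siRNA had 2 members higher and 0 lower, where adjusted calls made up 0.0145% of all genes and unadjusted ones 2.61% higher and 4.34% lower: MVD (log2 difference 0.45) and DHCR7 (0.35), with adjusted p of 0.587 and 0.581. Pink1 siRNA had 4 members higher and 1 lower than Nrf2 siRNA, where adjusted calls made up 0.992% of all genes and unadjusted ones 5.3% higher and 5.92% lower. FASN, MVD, DHCR7 and MSMO1 were higher, by log2 differences of 0.63, 0.45, 0.36 and 0.50, and HMGCS1 was lower, by a log2 difference of −0.62 (adjusted p of 0.179, 0.297, 0.285, 0.408 and 0.339). The difference between the single siRNAs at HMGCS1 and MSMO1 thus did not pass the test.

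The main effects use all 12 samples, 6 with a siRNA against 6 without it. For Nrf2 siRNA, 0 members were higher and 3 lower at an unadjusted p under 0.05, where adjusted calls made up 0.731% of all genes and unadjusted ones 6.64% higher and 4.9% lower. The 3 were PMVK (log2 difference −0.38, adjusted p = 0.133 by limma), whose 6 samples with Nrf2 siRNA were all below the 6 without it (0.659% of all genes), MSMO1 (−0.57, adjusted p = 0.126) and ELOVL6 (−0.25, adjusted p = 0.416). The separation at PMVK held for averaged technical pairs, but not in technical replicate 1 alone. There replicate 3 of Nrf2 siRNA had 22.45 TPM, replicate 2 of the double siRNA 22.27 TPM and replicate 2 of scramble 22.19 TPM. For Pink1 siRNA, 3 members were higher and 2 lower, where adjusted calls made up 0.652% of all genes and unadjusted ones 7.07% higher and 6.5% lower. FASN, DHCR7 and FADS1 were higher, by log2 differences of 0.45, 0.32 and 0.29 (adjusted p of 0.157, 0.140 and 0.169). HMGCS1 (−0.82, adjusted p = 0.0556) and ELOVL6 (−0.27, adjusted p = 0.319) were lower. HMGCS1 was called for this effect in 7 of 23 alternative settings, with adjusted p from 0.0156 to 0.181 (limma), among them without replicate 3 of the double siRNA and without replicate 2 of Nrf2 siRNA.

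The interaction takes the log2 difference of the double siRNA from scramble and subtracts the log2 differences of both single siRNAs from scramble, so that a value of 0 means that these add up. No member was called, as was no gene at all (0.0%), and 3 members were above 0 and 1 below at an unadjusted p under 0.05 (limma), where 1.38% of all genes were above and 4.07% below. HMGCS1 had a value of 0.78, ELOVL6 0.58, NSDHL, a dehydrogenase of sterol demethylation, 0.55 and SREBF1 −0.75, with adjusted p of 0.899, 0.868, 0.873 and 0.868. At HMGCS1 and ELOVL6 the double siRNA was thus less far below scramble than the sum of both single differences. The median was 0.39 for the sterol enzymes, with 16 of 18 above 0, and −0.24 for the fatty acid enzymes, with 1 of 6 above 0, against −0.03 over all genes, 54.0% of which were below 0. The sterol median was 0.24 without replicate 2 of Nrf2 siRNA and 0.26 without replicate 3 of the double siRNA, and the fatty acid median −0.14 without replicate 3 of Pink1 siRNA or replicate 3 of the double siRNA. Scramble enters this measure with a positive sign.

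The rest of lipid metabolism was read from 4 further lists. No gene of them was called in any of the 9 comparisons. At an unadjusted p under 0.05 (limma), with the background shares of 7.76%, 7.65% and 7.99% higher and 6.48%, 4.57% and 4.23% lower for the double siRNA, Pink1 siRNA and Nrf2 siRNA, the counts were as follows. Of 18 other sterol pathway genes tested, 4 were higher and 0 lower in the double siRNA, 3 and 0 in Pink1 siRNA, and 2 and 0 in Nrf2 siRNA. Of 12 genes of sterol efflux, esterification and LXR response, 3, 3 and 1 were higher and 0 lower. Of 30 other genes of fatty acid and glycerolipid synthesis, 1, 2 and 1 were higher and 3, 1 and 4 lower, and of 22 genes of fatty acid oxidation, 2, 2 and 3 were higher and 0, 1 and 1 lower. The median log2 difference of the efflux and LXR genes was 0.13 in the double siRNA, 0.16 in Pink1 siRNA and 0.17 in Nrf2 siRNA.

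Within the pathway, ACAT2, FDPS, FDFT1, EBP and IDI1 varied most like the remaining sterol enzymes over the 12 samples, with Pearson r of 0.923, 0.894, 0.855, 0.843 and 0.826 against their mean level. HMGCS1 had an r of 0.487 and DHCR7 of 0.174, while LSS, SREBF2 and SREBF1 had −0.425, −0.489 and −0.620. Among the genes tested outside the pathway, LYPLA1 (0.967), CPSF2 (0.955), ENSG00000181495 (0.931), FILIP1L (0.931) and PHLDB2 (0.924) were most like the mean of the sterol enzymes. These are descriptions over 12 samples that share libraries and TPM scaling with each other.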

How the data were processed

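RNA of 12 biological samples, each with 2 technical replicates, was sequenced from stranded mRNA libraries with paired reads, per the labels' protocols. Tools named in the submitters' processing notes are STAR, edgeR and RSEM, with the builds GRCh37 and hg19; their versions and roles are not stated there. The authors deposited TPM for 24053 Ensembl identifiers, with at most 2 decimals and column sums of 999678 to 999945; depth is unknown, so no interval that needs it is given. Symbols come from a gene name table, which holds 22789 of the identifiers.

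Technical pairs were averaged. On the scale of log2(TPM + 1), a model by group was fitted with limma 3.58.1 (R 4.3.3, trended prior, residual df 8, prior df 4.93) to every gene that averaged 1 TPM or more, 13810 in all. Tests were two-sided, with Benjamini-Hochberg adjustment over all genes and a threshold of 0.05. Folds come from TPM + 1 and understate those of low genes. The fit was tested on simulated data.

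The members and lists were chosen with earlier results of these data known. Values in every sample are given, by role, for the 2 members with the highest mean and the 2 with the smallest p against scramble; others named with such values were chosen after they were seen. Motifs were searched on both strands of RefSeq promoter windows. Alternatives were other pseudocounts, filters, scalings and samples, a replicate block, and single technical replicates.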

Additional observations from a re-analysis of the deposited data

How the results depend on the processing

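Of 5040 values of single members under alternative settings, 24 were called where the reported value was not. Past the threshold 0 changed sign, but only called values enter that count, and no reported value was called. Signs of uncalled values did change. Without replicate 3 of the double siRNA they did so for 8 of 28 members in the double siRNA against scramble, and for 9 of 28 against Nrf2 siRNA. Of 180 counts of called members, 157 stayed at the reported count. The count of called members was 1 in place of 0 under median-of-ratios rescaling, quantile normalization and removal of ENSG00000226958 for Pink1 siRNA against scramble (HMGCS1), Nrf2 siRNA against scramble (MSMO1), the double siRNA against scramble (HMGCS1) and the main effect of Nrf2 siRNA (MSMO1). For the main effect of Pink1 siRNA it was 2 under median-of-ratios rescaling (HMGCS1 and FADS1) and 1 under quantile normalization and removal of ENSG00000226958. It was also 1 for Pink1 siRNA against scramble and the main effect of Pink1 siRNA with a minimum of 5 TPM or technical replicate 1 alone, and 1 for each single siRNA against scramble when the fit held no double siRNA sample, an alternative chosen after seeing the data. Leaving out 1 sample gave 0 to 1 called members for the main effect of Pink1 siRNA; the 1 was HMGCS1, without replicate 3 of the double siRNA or replicate 2 of Nrf2 siRNA. The cause was not tested. The sterol minus fatty acid median for Pink1 siRNA was −0.33 in technical replicate 1 alone and −0.47 to −0.42 without 1 sample; for the double siRNA it was −0.34 to 0.018 without 1 sample. With the replicate number as a block, 0 members were called in all 9 comparisons; of 18 same-numbered sample pairs 6 had deviations correlated over 0.1 (range −0.161 to 0.28), so the numbers were not taken as pairing. The block gave 40 called genes in place of 65 for Pink1 siRNA, 30 in place of 46 for Nrf2 siRNA, 106 in place of 104 for the double siRNA (each against scramble), 1 in place of 6 for the double siRNA against Pink1 siRNA, 156 in place of 137 for Pink1 siRNA against Nrf2 siRNA, and 131 in place of 90 for the main effect of Pink1 siRNA. Depth is unknown and limits what low values can show.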
